A study of Mus musculus with 20 samples.

Results

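Liver libraries from male C57BL/6 mice labelled Lxrα-/- (5 libraries) were compared with liver libraries from male C57BL/6 mice labelled wild type (5 libraries), over all genes in one RNA sequencing count table. These 10 libraries are part of a series of 20, in which the other libraries are kidney and were not used. The labels number the wild-type livers 1, 3, 4, 5 and 6 and the knockout livers 1 to 5, and values are given below in that order. The labels used here give the strain, sex, genotype and tissue, and no age, diet, fasting state or time of day. They do not say which exons were removed or that each library came from a separate animal, so p-values measure the spread between these libraries, which may be technical.

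LXR alpha is the product of Nr1h3, a nuclear receptor for oxysterols that acts as a dimer with a retinoid X receptor. In liver it is known for activating genes of sterol efflux, of the fatty acid synthesis programme through Srebf1, and of lipoprotein remodelling. LXR beta, encoded by Nr1h2, is a close relative that binds the same ligands, and macrophages, including the resident Kupffer cells of the liver, also express LXR alpha.

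The RNA of the targeted gene was higher in the labelled knockout libraries. Nr1h3 (chr2:91184061-91202834, mm10) measured 89.1, 94.1, 103, 119.6 and 85.5 CPM in wild type, the count of a gene scaled to its library size and by the trimmed mean of M-values. In the labelled knockout it measured 145, 154, 168, 178 and 189 CPM. Every labelled knockout library lay above every wild-type library, with a log2 fold change of 0.76 (SE 0.12) and an adjusted p of 0.00277 in edgeR's quasi-likelihood test. A count summed over the whole gene does not show which exons the reads cover, so it does not check a deletion of part of the gene, and each direction below is that of the libraries labelled knockout. Nr1h2 measured 54.5, 45.7, 40.1, 38.1 and 42.5 CPM in wild type and 43.4, 34.6, 41.8, 48.0 and 41.1 CPM in the labelled knockout, and the groups overlapped (log2 fold change -0.08 (SE 0.12), adjusted p 0.763). Of 17 genes for receptors and cofactors, Nr1h3 was the 1 gene that passed the test.

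By the coordinates of the gene table Acp2 lies directly beside Nr1h3, followed by Ddb2, and both rose. Acp2, a lysosomal acid phosphatase (chr2:91202885-91214098), measured 39.1, 43.5, 41.4, 46.8 and 41.9 CPM in wild type and 95.7, 104, 84.8, 113 and 103 CPM in the labelled knockout. Ddb2, a subunit of a DNA damage recognition complex (chr2:91211572-91236982), measured 6.13, 4.01, 4.78, 3.96 and 4.22 CPM against 22.7, 21.3, 17.3, 23.8 and 17.4 CPM. Neither gene overlapped between genotypes, with log2 fold changes of 1.23 (SE 0.10) and 2.15 (SE 0.16). Their adjusted p-values in edgeR were 2.74e-05 and 7.72e-06. Madd, on the other side of Nr1h3, did not pass (log2 fold change -0.07 (SE 0.16), adjusted p 0.852), and these were the only 2 of 15 tested neighbours in the list that did. By their coordinates Acp2 and Ddb2 overlap each other, and the counting of reads on each strand is not given in the sources used here, so reads may be shared between these genes.

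Libraries held 23863994 to 35376342 counted reads, and 14822 of 54532 genes were tested. A gene is called here where the adjusted p is under 0.05, and 893 genes (6.02% of those tested) were called. Of these, 288 (1.94%) were higher and 605 (4.08%) were lower in the labelled knockout. Counts of called members in the lists below are to be read beside these shares. A list with 1 called member is not read as a result about that list. A change of at least 1 on the log2 scale was called for 172 higher genes (1.16%) and 367 lower genes (2.48%). The groups of libraries did not overlap for 1030 genes (6.95%), of which 717 were called. The median log2 fold change over all tested genes was 0.00. The hepatocyte markers summed to 95867 to 126790.0 CPM in wild type and to 62905 to 87600.1 CPM in the labelled knockout. Of 11 tested, 1 was called lower and 0 higher, and the median log2 fold change was -0.06. The 1 called was Alb, albumin (log2 fold change -0.75, adjusted p 0.0435 in edgeR). Its call was lost in 9 of 10 fits that left out 1 library, all but that without labelled knockout liver 2. Kidney markers summed to at most 2.66 CPM, with Slc12a1, Aqp2 and Kap at 0. Labelled knockout livers 4 and 5 stood apart from livers 1 to 3 on the second principal component, and without them 216 genes were called higher and 420 lower, with 473 of the 893 calls kept.

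**Figure D1:**
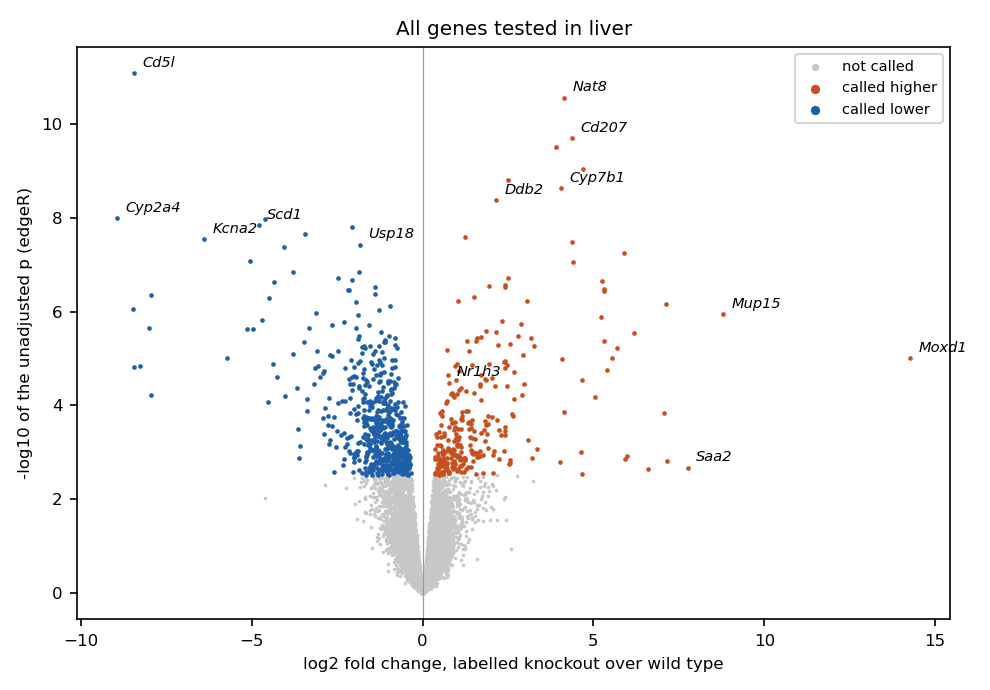
The log2 fold change of each of 14822 genes (labelled knockout over wild type, x axis) against -log10 of its unadjusted p from edgeR (y axis), with called genes coloured by direction. Cd5l is the highest point among 605 genes called lower, and Nat8 among 288 called higher.

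Some known LXR targets fell, while others, among them the genes of sterol efflux, did not pass the test. Of 18 targets tested, 6 were lower and 0 higher (5 and 1 without labelled knockout livers 4 and 5), and the median log2 fold change was -0.32. Scd1, the desaturase that makes oleate and palmitoleate, measured 3733, 8346, 5154, 5005 and 4487 CPM in wild type and 138, 205, 319, 224 and 76.0 CPM in the labelled knockout. The lowest wild-type library was over 10 times the highest labelled knockout library, and the log2 fold change was -4.79 (SE 0.38) with an adjusted p of 1.91e-05. Cd5l, a secreted scavenger receptor protein made by macrophages, measured 67.2, 67.4, 76.3, 124 and 119 CPM in wild type. It fell to 0.0749, 0.126, 0.207, 0.520 and 0.270 CPM in the 5 labelled knockout libraries (log2 fold change -8.45 (SE 0.37), adjusted p 1.22e-07). In whole tissue, fewer cells of a type and less RNA per cell cannot be told apart.

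Pltp, the phospholipid transfer protein of plasma, measured 67.8, 113, 67.0, 63.9 and 31.1 CPM in wild type and 4.53, 6.50, 6.41, 6.97 and 7.44 CPM in the labelled knockout. The log2 fold change was -3.43 (SE 0.28) with an adjusted p of 2.57e-05. Lipoprotein lipase, Lpl, measured 107, 174, 95.3, 173 and 94.2 CPM against 12.8, 30.1, 42.9, 16.8 and 14.3 CPM. Neither gene overlapped between genotypes, and Lpl fell by 2.46 on the log2 scale (SE 0.34, adjusted p 0.00104). Rnf145, a ubiquitin ligase of the endoplasmic reticulum, fell by 1.38 (SE 0.19, adjusted p 0.00104). Srebf1, the transcription factor of the fatty acid programme, measured 265, 167, 374, 566 and 403 CPM in wild type and 172, 164, 139.6, 172 and 141 CPM in the labelled knockout. Wild-type liver 3 lay inside the labelled knockout range, and the log2 fold change was -1.17 (SE 0.25) with an adjusted p of 0.0162. Without labelled knockout livers 4 and 5 the call of Srebf1 was lost (adjusted p 0.0728).

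The cholesterol transporters showed overlapping groups. Abca1, which loads cholesterol onto apolipoprotein A1, measured 110.4, 128, 158, 156 and 170.2 CPM in wild type and 150.0, 183, 165, 143 and 132 CPM in the labelled knockout (log2 fold change 0.09 (SE 0.14), adjusted p 0.760). Abcg5 and Abcg8, whose products together secrete sterols into bile, had log2 fold changes of -0.24 (SE 0.19) and 0.14 (SE 0.19). Abcg1 measured 7.60, 6.91, 6.29, 10.9 and 9.42 CPM against 4.42, 5.70, 7.40, 5.23 and 5.32 CPM, a log2 fold change of -0.55 (SE 0.19) that did not pass (adjusted p 0.107). Mlxipl, the carbohydrate response factor, had a log2 fold change of -0.12 (SE 0.17) and an adjusted p of 0.744.

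**Figure D2:**
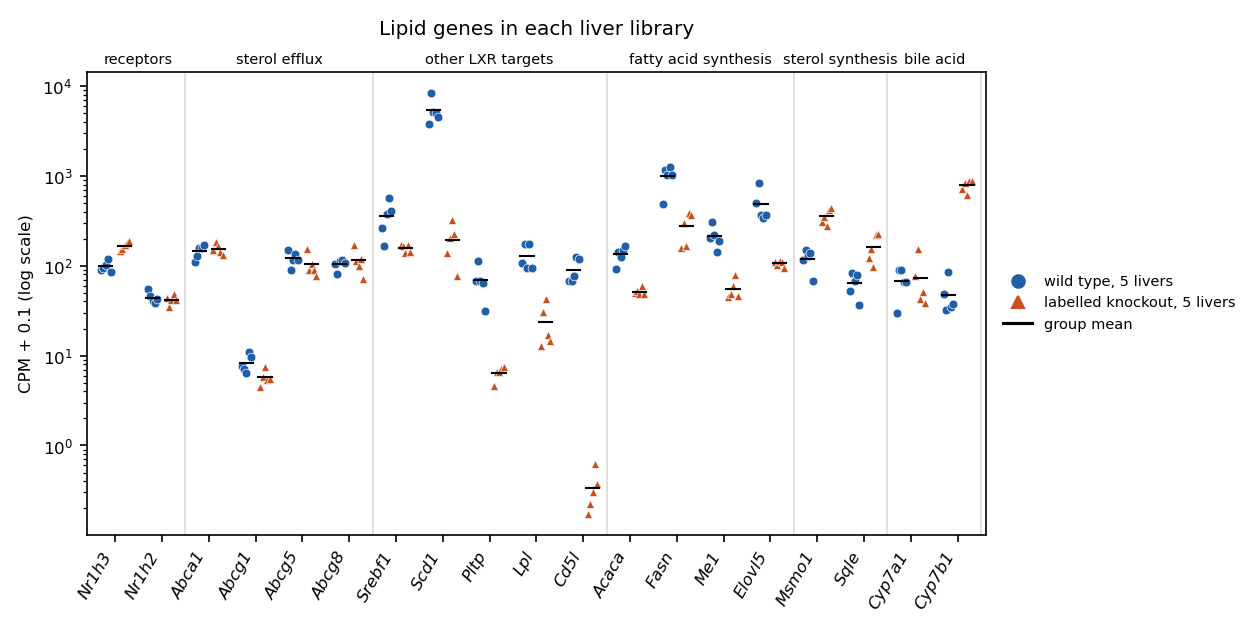
CPM plus 0.1 on a log axis for 19 lipid genes (x axis) in each of 5 wild-type livers (circles) and 5 labelled knockout livers (triangles), with group means as lines. Scd1, Pltp, Lpl and Cd5l do not overlap between genotypes, while Abca1, Abcg5 and Abcg8 do.

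Enzymes that build fatty acids from citrate were lower as a group. Of 10 de novo lipogenesis genes tested, 9 were called lower and 0 higher, with a median log2 fold change of -1.56. Their summed expression was 1549, 3412, 2635, 2854 and 2782 CPM in wild type and 827, 1077, 785, 1181 and 995 CPM in the labelled knockout. Wild-type liver 1 was the lowest of its group, and it still lay above all labelled knockout libraries. Acaca, the acetyl-CoA carboxylase that makes malonyl-CoA for synthesis, measured 92.3, 142, 125, 149 and 167 CPM against 49.5, 52.2, 47.8, 59.3 and 48.0 CPM (log2 fold change -1.39 (SE 0.15), adjusted p 0.000170). Fasn, fatty acid synthase, measured 480.5, 1161, 1028, 1248 and 1031 CPM against 159, 297, 166, 385 and 368 CPM (log2 fold change -1.85 (SE 0.31), adjusted p 0.00327). Me1, which supplies NADPH, measured 205, 303, 222, 142 and 188 CPM against 45.0, 47.8, 58.9, 79.3 and 45.6 CPM (log2 fold change -1.94 (SE 0.21), adjusted p 0.000216). None of these 3 genes overlapped between genotypes.

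Acacb, the carboxylase of the mitochondrial surface, fell by 2.09 on the log2 scale, Pklr, liver pyruvate kinase, by 2.06, and G6pdx, the entry enzyme of the pentose phosphate pathway, by 1.72. Their adjusted p-values were 0.00143, 0.00345 and 0.00988. Acss2 fell by 1.30 and Acly by 1.24 (adjusted p 0.00853 and 0.0153). The call of Pgd was weak (log2 fold change -0.54 (SE 0.14), adjusted p 0.0394) and was lost in 8 of 10 fits that left out 1 library, all but those without wild-type liver 1 or labelled knockout liver 5. Slc25a1, the mitochondrial citrate carrier, was the 1 gene that did not pass (log2 fold change 0.03 (SE 0.13)). Thrsp, a nuclear protein of lipogenic tissue, measured 251, 769, 965, 1404 and 729 CPM in wild type and 126, 114, 199, 79.8 and 112 CPM in the labelled knockout, without overlap (log2 fold change -2.71 (SE 0.38), adjusted p 0.00119).

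Chain elongation and desaturation moved in the same direction for 5 of 12 genes, with 0 called higher and a median log2 fold change of -0.28. Elovl5, an elongase of polyunsaturated fatty acids, measured 499.7, 826, 364, 343 and 369 CPM in wild type against 109, 102, 114, 111 and 93.8 CPM (log2 fold change -2.18 (SE 0.23), adjusted p 0.000148). The 5 labelled knockout values lay within a narrow range below every wild-type value. Elovl6, which extends palmitate, fell by 1.84 and Elovl2 by 1.17 (adjusted p 0.00146 and 0.00107). Elovl3, an elongase that is also in the male-biased list, lay in the opposite direction, at 105, 59.9, 66.8, 3.86 and 20.5 CPM in wild type and 233, 189.6, 259, 263 and 112 CPM in the labelled knockout. The groups did not overlap, and its log2 fold change of 2.04 (SE 0.60) did not pass (adjusted p 0.0660). Elovl3 was called higher without wild-type liver 1 or 5 (adjusted p 0.0388 and 0.0309), and also by DESeq2, by voom and with no filter beyond 1 count. Fads1 did not pass (log2 fold change -0.42 (SE 0.12), adjusted p 0.0621).

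Among 17 tested genes of triglyceride synthesis and lipolysis, 3 were lower and 0 higher, with a median of -0.34. Pnpla3, a lipid droplet hydrolase that SREBP1 activates, measured 1.01, 5.51, 3.80, 3.64 and 3.65 CPM in wild type and 0, 0, 0.124, 0.347 and 0.309 CPM in the labelled knockout (log2 fold change -4.38 (SE 0.64), adjusted p 0.00156). Pnpla5 of the same family had 196 reads over the wild-type libraries and none in the labelled knockout. That is at least 60.1-fold lower, taking 3 counts over the group as the limit that a count of 0 allows, which covers counting error only. Mgll, monoacylglycerol lipase, fell by 0.58 (adjusted p 0.00516). In another list, lipid droplets and fatty acid binding, 3 of 13 tested genes were lower and 0 higher, with a median of -0.27. Of these, Fabp5, a fatty acid-binding protein, measured 267, 558, 263, 396 and 272 CPM against 7.94, 27.3, 20.7, 71.6 and 105 CPM (log2 fold change -2.92 (SE 0.56), adjusted p 0.00892). Plin2 of that list did not pass (log2 fold change -0.27, adjusted p 0.398 in edgeR).

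Lipoprotein handling gave 6 of 23 genes called lower and 0 higher, with a median of -0.37. Beside Pltp and Lpl, Cd36, a fatty acid translocase, measured 34.0, 69.1, 41.6, 57.4 and 37.8 CPM in wild type and 10.1, 8.22, 12.0, 5.00 and 7.68 CPM in the labelled knockout. The groups did not overlap, and the log2 fold change was -2.48 (SE 0.25) with an adjusted p of 0.000116. Vldlr, a lipoprotein receptor, fell by 1.88, Apoa4 by 1.16 and Angptl4, an inhibitor of lipoprotein lipase, by 0.82. Their adjusted p-values were 0.00589, 0.0118 and 0.00296.

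Genes of cholesterol synthesis moved the other way. Of 24 tested, 9 were higher and 0 lower, and the median log2 fold change was 0.64. Msmo1, the sterol C4 methyl oxidase, measured 115, 148, 127, 140.0 and 68.1 CPM in wild type and 309, 352, 276, 417 and 443 CPM in the labelled knockout (log2 fold change 1.59 (SE 0.21), adjusted p 0.000745). Sqle, squalene epoxidase, measured 52.2, 83.0, 66.9, 79.3 and 36.3 CPM against 121, 153, 96.3, 218 and 228 CPM (log2 fold change 1.36 (SE 0.27), adjusted p 0.00975). Neither overlapped between genotypes, and labelled knockout livers 4 and 5 were the highest for both. Hsd17b7, which acts late in the pathway, rose by 1.08 (SE 0.16, adjusted p 0.00191), and Mvk, mevalonate kinase, by 1.43 (SE 0.29, adjusted p 0.0106).

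Hmgcs1, which makes HMG-CoA, measured 322, 520.2, 221, 294 and 112 CPM in wild type and 484, 852, 601, 956 and 1165 CPM in the labelled knockout, where livers 4 and 5 were the highest and liver 1 overlapped wild-type liver 3. Its call (log2 fold change 1.47 (SE 0.35), adjusted p 0.0263) and that of Fdps (1.77 (SE 0.43), adjusted p 0.0271) were lost without wild-type liver 4 or 5 or labelled knockout liver 4 or 5, with adjusted p up to 0.0631 and 0.0690. In each of those 4 fits 5 genes of the list were called, and 3 without labelled knockout livers 4 and 5 together. In that last fit the list median was 0.26 and the call of Sqle was lost. The adjusted p of Msmo1 was then 0.00475 and that of Hsd17b7 0.0123. The calls of Srebf2, the regulator of the pathway (log2 fold change 0.78 (SE 0.21), adjusted p 0.0466), of Fdft1 and of Mvd were lost in 7 of 10 fits that left out 1 library, with adjusted p up to 0.110, 0.107 and 0.117. The exceptions were the fits without wild-type liver 3 or labelled knockout liver 1 or 3.

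The Hmgcs1 promoter is shown because it was the 1 of 16 promoters in the sterol list with an exact match to the sterol regulatory element TCACCCCAC on either strand. The window runs from 250 bases before to 50 after the annotated start, from RefSeq on GRCm38.p6 (chr13:119690101-119690400, plus strand), printed 5′ to 3′ with the match in capitals at -137 to -129.
Hmgcs1: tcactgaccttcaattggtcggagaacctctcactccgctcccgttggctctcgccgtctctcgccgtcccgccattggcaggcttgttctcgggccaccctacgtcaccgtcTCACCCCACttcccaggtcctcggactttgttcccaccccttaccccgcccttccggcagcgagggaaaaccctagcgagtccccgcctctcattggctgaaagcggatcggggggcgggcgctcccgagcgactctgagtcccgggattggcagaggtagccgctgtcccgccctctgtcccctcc
That element was present in 0.614% of all 27025 promoter windows of this length and in 0.722% of 10660 windows of tested genes. It was also in 1 of 15 promoters of the female-biased list below and in 0 of 10 of de novo lipogenesis. A single match is not read as a result about a list. No match says only that these letters are absent from a window.

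Of 19 bile acid synthesis genes tested, 1 was called higher and 2 lower, beside 1.94% and 4.08% of all tested genes. Without labelled knockout liver 3, 2 were higher. Cyp7b1, the oxysterol 7 alpha-hydroxylase of the alternative pathway, measured 48.0, 31.9, 85.3, 34.4 and 37.3 CPM in wild type and 719, 839, 611, 879 and 867 CPM in the labelled knockout. The lowest labelled knockout value exceeded the highest wild-type value, with a log2 fold change of 4.05 (SE 0.28) and an adjusted p of 5.01e-06. Cyp7a1, the rate-limiting enzyme of the classic pathway, measured 29.6, 89.2, 88.4, 65.6 and 66.1 CPM against 76.5, 154, 42.9, 50.6 and 38.4 CPM, with overlapping groups (log2 fold change 0.10 (SE 0.38), adjusted p 0.916). Cyp8b1, the sterol 12 alpha-hydroxylase, had a log2 fold change of 0.32 (SE 0.37). Cyp2c70, which makes muricholic acids, fell by 0.93 (adjusted p 0.00409). Cyp39a1 fell by 1.54 (adjusted p 0.0200), a call lost without wild-type liver 5 or 6 (adjusted p up to 0.0526). Slc10a1, the bile acid importer of hepatocytes, fell by 1.03 (SE 0.19, adjusted p 0.00638), without overlap.

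Fatty acid oxidation and PPAR alpha target genes gave 5 of 24 called lower and 0 higher, with a median of -0.38. Cyp4a14, a fatty acid omega-hydroxylase that is also higher in female liver, measured 53.1, 95.1, 29.3, 157 and 70.6 CPM in wild type and 1.57, 3.10, 13.4, 2.08 and 1.20 CPM in the labelled knockout (log2 fold change -4.26 (SE 0.67), adjusted p 0.00237). Without labelled knockout liver 3, its highest value in that group, the log2 fold change was -5.35. The list count fell to 2 without wild-type liver 5, to 3 without wild-type liver 3 or labelled knockout liver 4 or 5, and to 1 without labelled knockout livers 4 and 5. In glucose handling, 3 of 17 were lower and 0 higher, namely Igfbp1, Khk and Pygl. The calls of Khk and Pygl (log2 fold changes -0.66 and -0.80) were lost without labelled knockout livers 4 and 5. Igfbp1, an insulin-repressed binding protein for insulin-like growth factors, measured 121, 172, 147, 128 and 379 CPM in wild type and 6.22, 21.9, 28.8, 40.5 and 7.64 CPM in the labelled knockout (log2 fold change -3.17 (SE 0.51), adjusted p 0.00288). Without labelled knockout livers 4 and 5, 1 gene of that list was called.

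**Figure D3:**
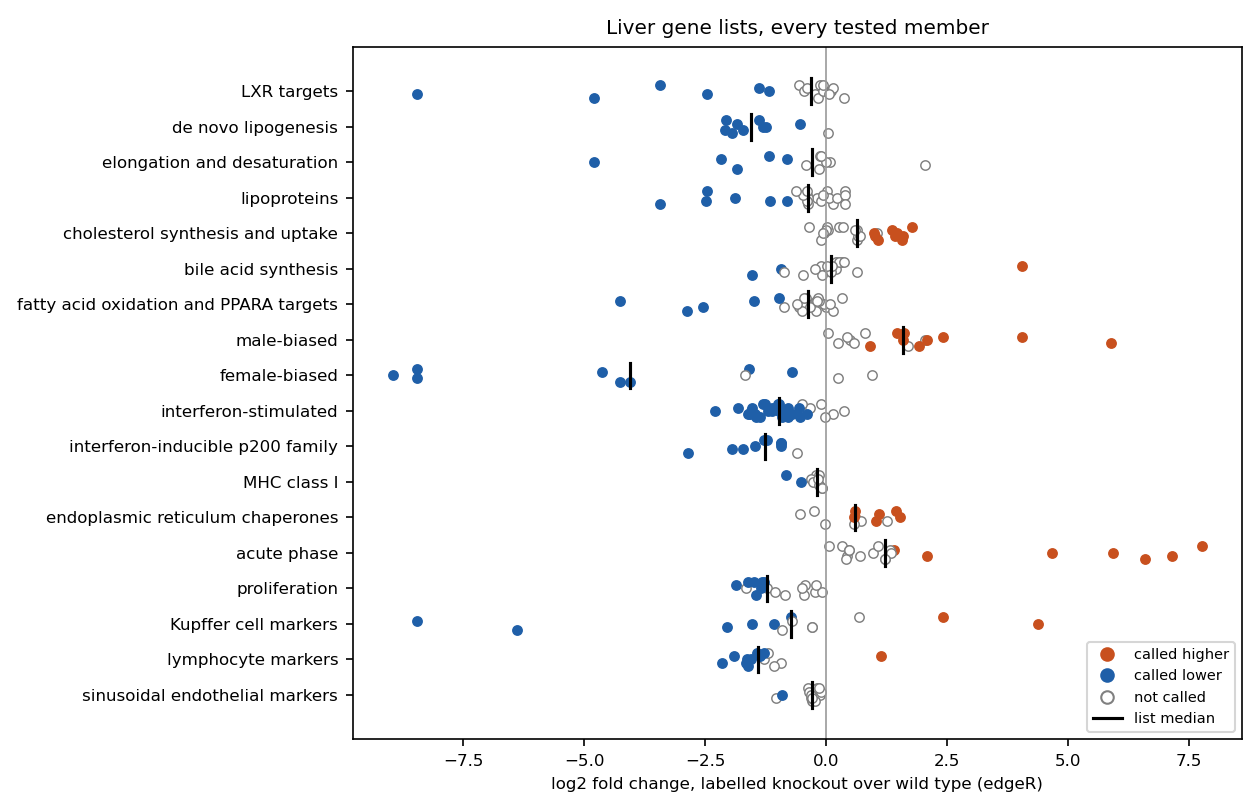
Log2 fold changes (x axis, edgeR, labelled knockout over wild type) of every tested member of 18 gene lists, filled where called, with list medians as lines. The medians of de novo lipogenesis and interferon-stimulated genes lie left of 0, and those of cholesterol synthesis and male-biased genes right of it.

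Among genes that differ between male and female mouse liver, male-biased genes were called higher and female-biased genes lower. In rodents this difference depends on the timing of growth hormone pulses, which in males favour major urinary proteins and repress a set of P450s. Of 17 male-biased genes tested, 9 were higher and 0 lower, with a median log2 fold change of 1.58. Of 11 female-biased genes tested, 8 were lower and 0 higher, with a median of -4.04; 9 further members had too few reads to test. Members that passed the read filter through their wild-type level alone had to differ, so these counts describe the tested members only.

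Cyp2a4, a steroid 15 alpha-hydroxylase, measured 128, 115, 186, 696 and 189 CPM in wild type and 1.01, 0.168, 0.785, 0.260 and 0.463 CPM in the labelled knockout. Its log2 fold change was -8.94 (SE 0.69), with an adjusted p of 1.61e-05. Cyp2b9 measured 13.5, 43.3, 10.9, 153 and 37.2 CPM in wild type and 0.150, 0.419, 0.124, 0 and 0.0771 CPM in the labelled knockout (log2 fold change -8.46 (SE 0.96), adjusted p 0.000279). Wild-type liver 5 was the highest for both genes, and the lowest wild-type value still lay above every labelled knockout value. Without that liver the log2 fold changes of Cyp2a4 and Cyp2b9 were -8.18 and -7.48. Then 7 of 12 tested female-biased genes were lower, with a median of -2.61. Leaving out labelled knockout liver 2 moved Cyp2b9 to -9.23.

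Major urinary proteins rose. Mup1, a pheromone carrier excreted in urine, measured 2.91, 1.03, 3.69, 0.357 and 1.15 CPM in wild type and 101, 68.6, 140.1, 61.7 and 166 CPM in the labelled knockout (log2 fold change 5.89 (SE 0.53), adjusted p 4.39e-05). Wild-type liver 5 was the lowest of its group. The Mup genes are near-identical copies whose reads can be split between them, so single members are uncertain and their sum is given. Over 21 Mup genes, a list added after the values were seen, the sum was 13151, 6907, 12633, 5053 and 9125 CPM in wild type and 49430.3, 39695, 49904, 36009.8 and 36223 CPM in the labelled knockout. The groups did not overlap, and 13 of 19 tested members were called higher and 0 lower (10 and 0 without labelled knockout livers 4 and 5). Members that passed the read filter through their labelled knockout level alone had to differ, and copies that share reads are not separate results. Mup3 did not pass (log2 fold change 0.44 (SE 0.24), adjusted p 0.337). Of the 10 highest called protein-coding genes whose groups did not overlap and whose mean over all libraries reached 1 CPM, 7 were Mup genes (Mup15, Mup8, Mup17, Mup1, Mup12, Mup19 and Mup7).

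C6, a complement component, measured 104, 65.3, 141, 25.3 and 91.9 CPM against 372, 479, 381, 587 and 462 CPM (log2 fold change 2.42 (SE 0.35), adjusted p 0.00145), and Gstp1, a glutathione transferase, 969.8, 349, 746, 165 and 411 CPM against 1867, 2158, 2097, 1975 and 1872 CPM (log2 fold change 1.92 (SE 0.37), adjusted p 0.00846). Cyp7b1, described above, belongs to this list too. The count of male-biased genes called higher was 5 without wild-type liver 3 or 6, and 7 without labelled knockout livers 4 and 5. Among 12 growth hormone signalling genes tested, 0 were higher and 1 was lower, beside 4.08% of all tested genes called lower. The median was 0.00. The 1 called was Prlr, the prolactin receptor, which is also in the female-biased list (log2 fold change -0.70 (SE 0.19), adjusted p 0.0459). That call was lost in 9 of 10 fits without 1 library, all but the fit without labelled knockout liver 2, and without labelled knockout livers 4 and 5. Without wild-type liver 1, 1 gene of the list was called higher. All 10 libraries came from animals labelled male, and Ddx3y, on the Y chromosome, had 635 to 2002 reads in each.

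Some genes were near absent in 1 genotype. Slc22a26, an organic anion transporter, measured 7.88, 16.6, 10.3, 68.3 and 13.8 CPM in wild type and 0.0749, 0.252, 0.124, 0 and 0.0386 CPM in the labelled knockout, or 3534 reads against 12. Hao2, a peroxisomal hydroxy acid oxidase, had 1878 reads against 6, and Aqp7, a glycerol channel, 158 against 5. In the other direction, Moxd1, a monooxygenase related to dopamine beta-hydroxylase, had no read in any wild-type liver. It measured 183, 56.6, 8.43, 39.2 and 150.4 CPM in the labelled knockout, at least 4239.8-fold higher by the same limit of 3 counts over the group. The labelled knockout values of Moxd1 themselves spanned more than 20-fold. Obp2a, an odorant-binding protein, had 4 reads in wild type and 580 in the labelled knockout, and Irx1, a homeobox factor, 5 and 202. In all, 14 genes were near absent in 1 genotype, under 0.1 CPM on average, and above 1 CPM in the other.

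Interferon-stimulated genes were lower together. These genes are switched on by type I interferon through transcription factors that bind an interferon-stimulated response element. Of 31 tested, 25 were lower and 0 higher, with a median log2 fold change of -0.98. Usp18, a protease that removes ISG15 and restrains interferon signalling, measured 25.5, 21.6, 30.5, 36.8 and 33.2 CPM in wild type and 7.04, 8.09, 9.96, 9.22 and 7.25 CPM in the labelled knockout (log2 fold change -1.83 (SE 0.16), adjusted p 3.27e-05). Ifit3, an antiviral effector, measured 28.0, 24.2, 23.7, 31.5 and 25.1 CPM against 6.59, 10.8, 13.9, 8.41 and 5.94 CPM (log2 fold change -1.54 (SE 0.21), adjusted p 0.000915). Irf7, which amplifies interferon production, measured 75.0, 54.5, 62.7, 58.9 and 56.1 CPM against 21.3, 22.0, 29.0, 36.1 and 24.9 CPM (log2 fold change -1.20 (SE 0.15), adjusted p 0.000636). None of these 3 genes overlapped between genotypes.

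Ifi44 fell by 2.29, Gbp3, a guanylate-binding protein, by 1.46 and Parp14 by 0.79, with adjusted p-values of 0.000450, 0.00119 and 0.000745. Isg15, the ubiquitin-like protein, measured 34.8, 23.5, 30.4, 37.5 and 18.5 CPM against 10.3, 14.3, 20.2, 17.8 and 14.8 CPM, and labelled knockout liver 3 lay above wild-type liver 6. Its call (log2 fold change -0.90 (SE 0.21), adjusted p 0.0234) was lost without wild-type liver 4 or 5 or labelled knockout liver 2, with adjusted p up to 0.0593. The list count was 20 to 24 over the 10 fits without 1 library, and 20 without labelled knockout livers 4 and 5.

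The interferon-inducible p200 family, sensors and regulators clustered in the genome, gave 9 of 10 tested genes lower and 0 higher (6 and 0 without labelled knockout livers 4 and 5), with a median of -1.26. Ifi213 measured 10.4, 7.90, 6.89, 5.91 and 6.49 CPM in wild type and 1.24, 2.68, 2.56, 1.85 and 1.43 CPM in the labelled knockout (log2 fold change -1.95 (SE 0.24), adjusted p 0.000551). Ifi209 fell by 1.48 and Ifi204 by 1.23 (adjusted p 0.00156 and 0.00208). Members of this family are close copies, and reads may be split between them. Among 12 genes of MHC class I presentation, 2 were lower and 0 higher. H2-Q7 fell by 0.83 and H2-T23 by 0.53.

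Promoters of both families held the core of the response element, GAAANNGAAA, on either strand in the same 300-base window. It was found in 13 of 21 interferon-stimulated genes with a promoter in the table (61.9%) and in 7 of 9 p200 genes (77.8%). The share was 3.93% of 10660 tested genes with a promoter and 3.99% of all 27025 windows. Neither list was drawn from these windows, but both are of genes known for interferon response. The promoters of Ifit3 (chr19:34583279-34583578, plus strand), Isg15 (chr4:156200769-156201068, minus strand) and Ifi213 (chr1:173599223-173599522, minus strand) are shown as examples from 3 genes called lower. They are from RefSeq on GRCm38.p6, 5′ to 3′ on the strand of the gene, with matches in capitals.
Ifit3: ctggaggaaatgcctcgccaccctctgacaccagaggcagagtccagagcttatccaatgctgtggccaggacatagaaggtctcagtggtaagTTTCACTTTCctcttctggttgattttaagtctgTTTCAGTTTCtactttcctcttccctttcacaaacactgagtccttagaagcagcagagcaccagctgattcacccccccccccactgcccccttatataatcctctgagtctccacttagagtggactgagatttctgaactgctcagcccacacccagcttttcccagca
Isg15: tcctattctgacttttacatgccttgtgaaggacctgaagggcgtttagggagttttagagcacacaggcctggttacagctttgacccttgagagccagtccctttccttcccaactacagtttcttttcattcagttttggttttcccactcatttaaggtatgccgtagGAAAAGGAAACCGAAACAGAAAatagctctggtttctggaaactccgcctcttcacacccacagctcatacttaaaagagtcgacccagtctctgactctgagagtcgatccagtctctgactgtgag
Ifi213: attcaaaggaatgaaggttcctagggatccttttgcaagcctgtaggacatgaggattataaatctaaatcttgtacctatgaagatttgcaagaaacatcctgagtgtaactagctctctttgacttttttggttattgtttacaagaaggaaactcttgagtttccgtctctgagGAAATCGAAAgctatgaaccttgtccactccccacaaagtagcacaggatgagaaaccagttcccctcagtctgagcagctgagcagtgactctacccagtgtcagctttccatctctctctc
Ifit3 held 2 matches between -156 and -113, Isg15 held 3 overlapping matches between -78 and -57, and Ifi213 held 1 at -73 to -64. A match is a description of letters and not of a bound site. The exact direct repeat of AGGTCA with 4 bases between, a form of the LXR element, was in 0 of 13 promoters of the LXR target list and in 0.0148% of all windows.

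Acute-phase genes were high in labelled knockout livers 4 and 5 and not in livers 1 to 3. These are plasma proteins that hepatocytes release under interleukin 6 and interleukin 1. Saa1, serum amyloid A, measured 52.6, 75.8, 109, 66.9 and 71.9 CPM in wild type and 45.3, 90.7, 111, 7910.0 and 14757 CPM in the labelled knockout. Lcn2, which binds iron-carrying siderophores, measured 6.32, 10.6, 6.47, 11.0 and 21.9 CPM against 8.35, 6.50, 5.54, 1248 and 4146 CPM, and Hp, haptoglobin, 4357, 3038, 3409, 3428 and 2760.3 CPM against 3764, 6421, 3950.0, 23579.5 and 33779.6 CPM. Labelled knockout livers 1 to 3 lay near the wild-type range for Saa1 and Lcn2, while livers 4 and 5 lay far above it. Over 20 genes, 7 were called higher and 0 lower, and the groups overlapped for all 20. The summed expression was 25673, 24574, 25498, 26654 and 25836 CPM in wild type and 21300.5, 28318, 21324, 98056 and 147650.0 CPM in the labelled knockout. Without labelled knockout livers 4 and 5, 0 were higher and 1 was lower, the median was -0.20, and Saa2 and Lcn2 had log2 fold changes of -1.14 and -0.72. All 7 calls were also lost in each of 7 fits without 1 library (any wild-type liver, or labelled knockout liver 4 or 5).

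Chaperones of the endoplasmic reticulum showed 7 of 13 genes higher and 0 lower, with a median of 0.61. Hspa5, the chaperone BiP, measured 327, 461, 512, 412 and 465 CPM in wild type and 520.2, 668, 660.0, 662 and 785 CPM in the labelled knockout, without overlap (log2 fold change 0.60 (SE 0.15), adjusted p 0.0335). Sdf2l1, a cofactor of BiP, measured 23.7, 27.9, 27.2, 47.1 and 26.8 CPM against 37.0, 84.5, 53.1, 112 and 154 CPM, highest in labelled knockout livers 4 and 5 (log2 fold change 1.53 (SE 0.33), adjusted p 0.0168). Manf rose by 1.04 and Creld2 by 1.44 (adjusted p 0.0121 and 0.0160). The count was 4 without wild-type liver 1, 3 or 6 or labelled knockout liver 2, 4 or 5, and 2 without labelled knockout livers 4 and 5. The call of Hspa5 was lost in 8 of 10 fits without 1 library, all but those without wild-type liver 4 or labelled knockout liver 1 (adjusted p up to 0.0728). The part of the acute-phase difference in the chaperone and cholesterol results was not tested beyond these values. Asns, asparagine synthetase, was the 1 of 12 ATF4 target genes that passed, beside 1.94% of all tested genes called higher. The count was 2 without wild-type liver 1 and 3 without labelled knockout liver 1 or with DESeq2. Asns measured 5.00, 5.25, 6.01, 9.81 and 9.17 CPM in wild type and 29.0, 30.6, 19.4, 47.5 and 52.3 CPM in the labelled knockout (log2 fold change 2.34 (SE 0.28), adjusted p 0.000446).

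**Figure D4:**
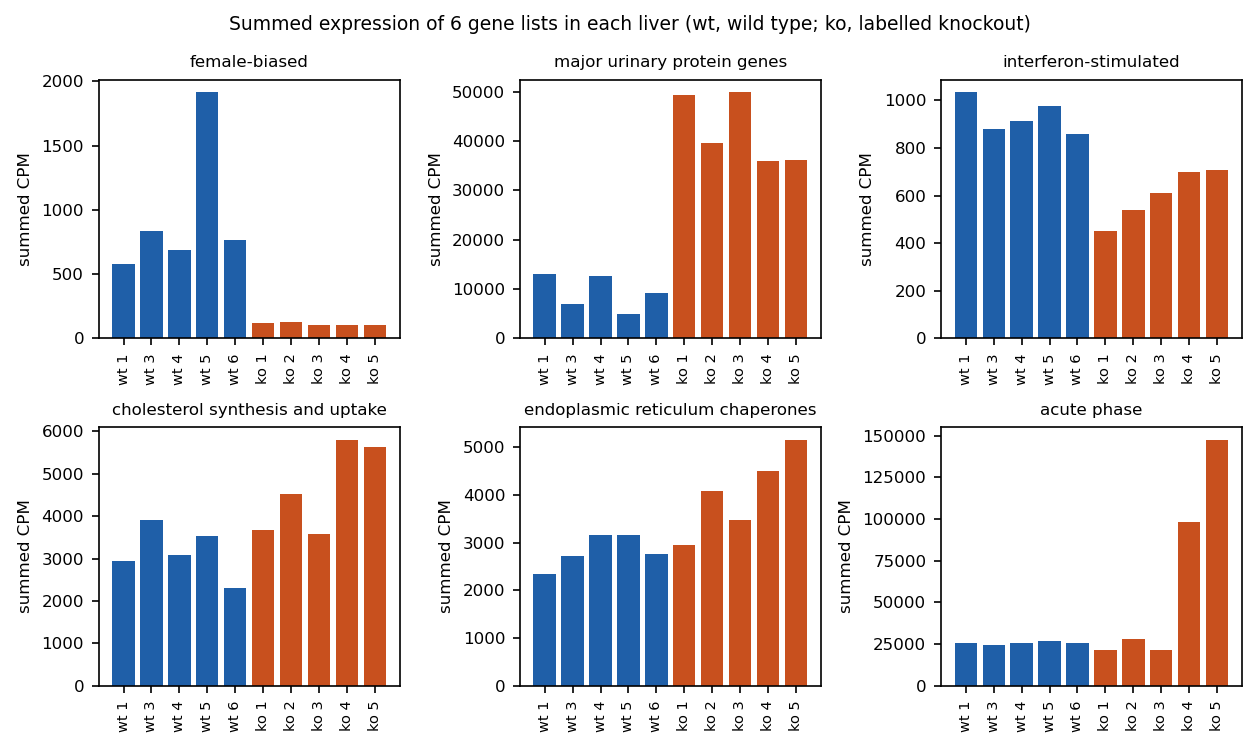
Summed CPM of 6 gene lists (y axes start at 0) in each wild-type liver (blue) and labelled knockout liver (orange). Acute-phase sums are 98056 and 147650.0 CPM in labelled knockout livers 4 and 5 and at most 28318 CPM in the other 8 livers, and wild-type liver 5 is the highest for the female-biased list.

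Kupffer cell markers did not move together. Of 13 tested, 6 were lower and 2 higher, with a median of -0.72. Clec4f, a lectin of Kupffer cells, measured 111, 96.2, 104, 139 and 135 CPM in wild type and 36.2, 47.3, 53.9, 50.9 and 89.4 CPM in the labelled knockout (log2 fold change -1.07 (SE 0.21), adjusted p 0.00930). Timd4, a phosphatidylserine receptor, measured 6.17, 5.36, 5.31, 7.57 and 7.15 CPM against 1.31, 1.93, 1.65, 0.983 and 1.77 CPM (log2 fold change -2.05 (SE 0.21), adjusted p 0.000120). Kcna2, a potassium channel, measured 5.35, 3.67, 3.34, 3.34 and 5.03 CPM in wild type and 0, 0.0839, 0.165, 0 and 0 CPM in the labelled knockout (log2 fold change -6.39 (SE 0.54), adjusted p 2.88e-05). All 3 genes fell without overlap, to differing degrees. Without labelled knockout liver 3, the highest of its group, the log2 fold change of Kcna2 was -7.53.

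Vsig4, a complement receptor, measured 18.7, 17.0, 19.2, 26.7 and 25.3 CPM against 10.2, 12.5, 11.8, 11.5 and 19.1 CPM, and labelled knockout liver 5 lay inside the wild-type range. Its call (log2 fold change -0.72 (SE 0.18), adjusted p 0.0351) was lost in 7 of 10 fits without 1 library, all but those without wild-type liver 1 or 3 or labelled knockout liver 5. Marco did not pass (log2 fold change -0.92 (SE 0.38), adjusted p 0.189). Cd207, the lectin langerin, rose from 0.931, 0.441, 0.598, 0.520 and 0.575 CPM to 11.6, 10.7, 11.0, 11.2 and 19.2 CPM, without overlap (log2 fold change 4.38 (SE 0.25), adjusted p 1.00e-06). The other member called higher was C6, which is also in the male-biased list. Among general macrophage markers, 3 of 20 were lower and 1 higher, and the count called lower was 6 without labelled knockout liver 5, alone or with liver 4. Mpeg1, a pore-forming protein, fell by 1.14 (SE 0.19, adjusted p 0.00323), and Cx3cr1, the fractalkine receptor, measured 0.970, 1.29, 0.316, 0.682 and 0.804 CPM against 3.74, 2.22, 2.77, 3.30 and 4.55 CPM (log2 fold change 2.03 (SE 0.32), adjusted p 0.00242). Csf1r, the receptor that macrophages need to survive, did not pass (log2 fold change -0.41 (SE 0.15), adjusted p 0.151).

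Lymphocyte markers gave 9 of 14 tested genes lower and 1 higher, with a median of -1.40. Their summed expression was 27.2, 21.2, 18.9, 22.9 and 17.9 CPM in wild type and 9.02, 13.1, 10.4, 9.48 and 7.37 CPM in the labelled knockout, so the groups did not overlap. Cd79a, of the B cell receptor, fell by 1.66 and Gzma, a granzyme, by 2.16 (adjusted p 0.00254 and 0.00251). Immunoglobulin genes, a list added after the values were seen, gave 8 of 11 lower and 0 higher. Igha, the heavy chain of IgA, measured 25.3, 18.6, 11.8, 31.7 and 17.5 CPM in wild type and 1.42, 5.45, 5.58, 5.35 and 4.05 CPM in the labelled knockout (log2 fold change -2.26 (SE 0.34), adjusted p 0.00172). Without labelled knockout livers 4 and 5, 4 lymphocyte markers and 4 immunoglobulin genes were called lower, and without labelled knockout liver 4 alone, 5 immunoglobulin genes. Cd4, which some macrophages and dendritic cells also express, was the marker called higher (log2 fold change 1.13 (SE 0.29), adjusted p 0.0377). That call was lost in 6 of 10 fits without 1 library, those without wild-type liver 3, 5 or 6 or labelled knockout liver 2, 4 or 5. Among sinusoidal endothelial markers, 1 of 13 was lower, beside 4.08% of all tested genes. It was Cdh5, a cadherin of endothelial junctions (log2 fold change -0.90 (SE 0.23), adjusted p 0.0340). The count was 2 without wild-type liver 1 or labelled knockout liver 3, and 0 without wild-type liver 4, 5 or 6, labelled knockout liver 1, 4 or 5, or labelled knockout livers 4 and 5 together.

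**Figure D5:**
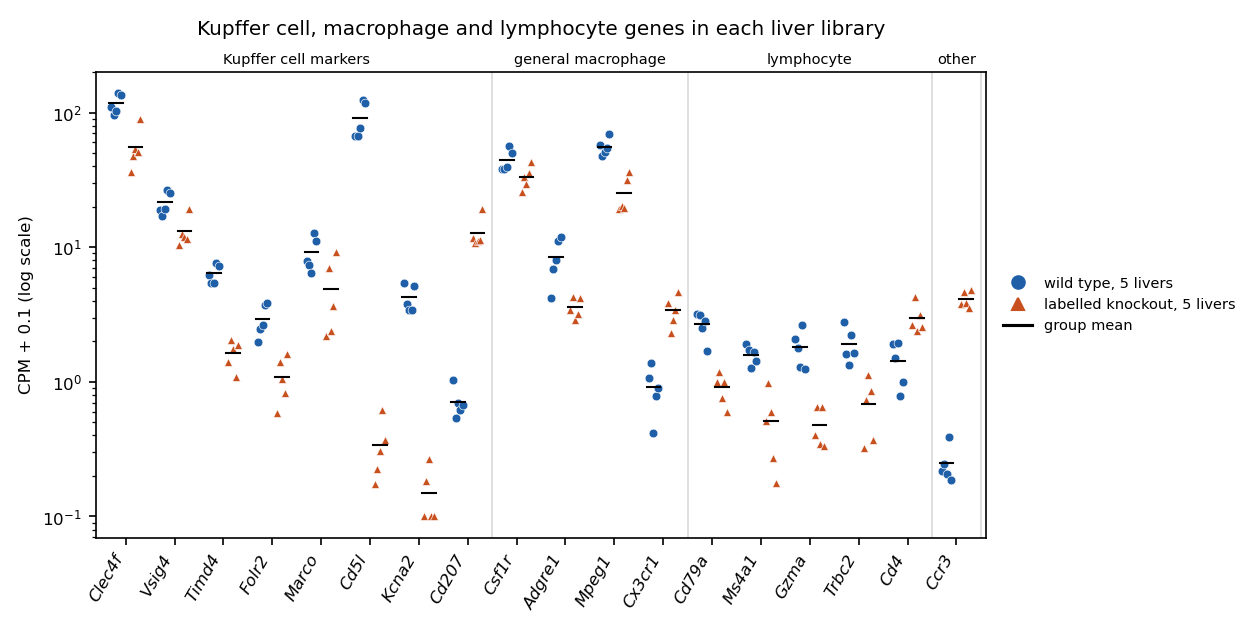
CPM plus 0.1 on a log axis for Kupffer cell, macrophage and lymphocyte genes (x axis) in each of 5 wild-type livers (circles) and 5 labelled knockout livers (triangles), with group means as lines. Cd5l and Kcna2 lie under 1 CPM in every labelled knockout library, while Cd207, Cx3cr1 and Ccr3 lie above every wild-type value.

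Genes of cell division were lower for 7 of 17 members, with 0 higher and a median of -1.22. Rrm2, a subunit of ribonucleotide reductase, measured 5.35, 10.6, 5.31, 9.71 and 8.85 CPM in wild type and 3.74, 3.56, 3.10, 1.79 and 2.04 CPM in the labelled knockout (log2 fold change -1.49 (SE 0.27), adjusted p 0.00529). The count was 4 without wild-type liver 3 or 5 or labelled knockout liver 1 or 2. Of 13 stellate cell and fibroblast genes, 3 were lower, and all 3 were fibrillar collagen chains. Col1a1 measured 15.8, 31.6, 15.5, 22.3 and 21.4 CPM in wild type and 3.71, 5.07, 10.2, 7.37 and 5.55 CPM in the labelled knockout, without overlap (log2 fold change -1.74 (SE 0.27), adjusted p 0.00203). Without labelled knockout livers 4 and 5, 1 gene of that list was called. Of 9 pericentral hepatocyte markers, 1 was called higher, beside 1.94% of all tested genes. It was Oat, ornithine aminotransferase (log2 fold change 0.92 (SE 0.23), adjusted p 0.0323), a call lost without wild-type liver 1, 3, 4 or 6.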

How the data were processed

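The sources describe liver frozen in liquid nitrogen, RNA taken with Trizol and libraries made with the NEBNext Ultra kit. The submitters' processing notes name mm10, HISAT2 2.0.5, StringTie and DESeq2 1.16.1, with no role or order. The authors deposited a table of raw read counts per gene, used for all results, and a table that its name and values give as log2 FPKM, used for 1 alternative. Gene length in the count table was not used as a measurement.

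Groups came from the labels, 5 livers each. Genes were kept by filterByExpr (minimum count 10), scaled by TMM and tested with edgeR 4.0.16 (quasi-likelihood, R 4.3.3) on the 10 livers, with Benjamini-Hochberg adjustment over 14822 genes; a call is an adjusted p under 0.05. Depth was 23863994 to 35376342 reads. The step was tested on simulated data. Alternatives used DESeq2 1.42.0 and limma 3.58.1. The 46 gene lists were chosen with earlier results of these data known. Named genes were the 2 receptors, the 10 highest and 10 lowest called protein-coding genes without overlap of groups whose mean reached 1 CPM, up to 6 members of each list by p, 24 well-known genes and near-absent genes; others are said to be added later. Not every gene so chosen is printed. Promoter windows are RefSeq's (GRCm38.p6), matched by symbol for 10660 of 14821 tested symbols. Kidney libraries were not analysed here.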

Additional observations from a re-analysis of the deposited data

Results flagged for a closer look

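Some single libraries lay far from the other 4 of their group, by the gap to the nearest library over the group's range (above 0.71). For independent normal values, chance gives about 1 in 20 such groups. The values here were CPM of lists that share genes and of genes the text names, so that rate need not hold. Of 196 groups examined 17 passed it, 6 of them through wild-type liver 5 and 5 through labelled knockout liver 5. Wild-type liver 5 was highest for the summed female-biased list (1914 CPM, others 582 to 837), Cyp2a4 (696.2 CPM), Cyp2b9 (152.9 CPM), Sdf2l1 (47.1 CPM), pancreas markers (4.03 CPM) and adipose markers (68.1 CPM, others at most 1.12). Labelled knockout liver 5 was highest for neutrophil markers (18.1 CPM, others at most 5.06), Vsig4 (19.1 CPM), Cd207 (19.2 CPM), Cyp21a1 (5.67 CPM) and C4a (293.4 CPM). Wild-type liver 1 was lowest for Fasn (480.5 CPM, others 1028 to 1248) and highest for ATF4 targets (182.8 CPM). Wild-type liver 3 was lowest for the receptor list (1301 CPM) and highest for elongation and desaturation (11267 CPM, others at most 7459.6). Wild-type liver 6 was highest for cholangiocyte markers (133.7 CPM) and Meg3 (1.81 CPM).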

How the results depend on the processing

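The numbers of genes called higher and lower were 288 and 605, and 172 and 367 for changes of at least 1. DESeq2's Wald test called 556 higher, 293 by at least 1, and its calls held all 893 of edgeR. limma on the log2 FPKM values called 176 higher, 98 by at least 1. With no filter beyond 1 count, 264 were higher by at least 1. With the replicate number of the title as a block (replicate block), 107 were higher and 200 lower, 90 and 179 by at least 1. The labels do not say that these numbers pair the livers. Same-numbered livers correlated at -0.0355 to 0.0202 in their deviations from group means, over 4 shared numbers. A correlation over all genes cannot exclude a shared effect on some genes. The block kept 293 of the 893 calls, and why it kept fewer was not tested. With it, 1 of 17 genes of cell division and 12 of 31 interferon-stimulated genes were called lower. Both list medians were then -1.04. Over the 10 fits without 1 library, the counts ranged from 189 to 307 higher and 386 to 618 lower, and from 139 to 196 and 271 to 405 by at least 1; the lowest count of each of the first pair was without wild-type liver 6. Without scaling by TMM the median of all genes was -0.08. Of 163 called genes examined, 121 kept the call in all 10 fits without 1 library, 113 without labelled knockout livers 4 and 5, and 102 with the block. Signs turned for Saa2 (-1.14), Lcn2 (-0.72), Orm2 (-0.20), Madd (0.17), Slc25a1 (-0.0765) and C4b (-0.30) without labelled knockout livers 4 and 5, where the acute-phase values of those livers are absent by construction. Other turns were of genes that did not pass: with the block Mlxipl (0.0559), Cyp7a1 (-0.36) and Slc25a1 (-0.0326); with voom Slc25a1 (-0.0339) and C4b (-0.16); without TMM Slc25a1 (-0.0441). Without 1 library, log2 fold changes ranged from -0.134 to 0.0065 for Nr1h2, -0.176 to 0.0215 for Madd, -0.0361 to 0.264 for Abcg8, -0.255 to 0.014 for Mlxipl, -0.0314 to 0.132 for Slc25a1, -0.379 to 0.258 for Cyp7a1 and -0.0365 to 0.285 for C4b. Unless said, the cause was not tested; fits without libraries hold fewer samples.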

Other observations

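The genes in this paragraph were chosen after their values were seen. Nat8, an acetyltransferase of the endoplasmic reticulum, measured 1.36, 1.47, 2.07, 1.27 and 1.09 CPM in wild type and 33.2, 28.1, 21.3, 20.8 and 24.9 CPM in the labelled knockout, the smallest p among genes called higher (log2 fold change 4.15 (SE 0.20), adjusted p 2.05e-07 in edgeR). Susd4, a complement inhibitor, measured 3.76, 2.50, 3.83, 2.83 and 3.94 CPM against 75.0, 50.6, 51.6, 40.9 and 32.9 CPM (log2 fold change 3.89 (SE 0.23)). Ccr3, a chemokine receptor best known on eosinophils, measured 0.116, 0.147, 0.105, 0.292 and 0.0862 CPM against 3.67, 4.53, 3.72, 3.41 and 4.71 CPM (log2 fold change 4.70 (SE 0.30), adjusted p 2.67e-06). None of these 3 genes overlapped between genotypes.

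Genes of the MHC region of chromosome 17 differed in direction. C4a, a copy of complement C4 known for male-biased expression in mouse (chr17:34809092-34823464, mm10), measured 6.21, 6.87, 5.38, 8.64 and 5.49 CPM in wild type and 105, 69.2, 107, 95.8 and 293 CPM in the labelled knockout (log2 fold change 4.36 (SE 0.37), adjusted p 3.09e-05). Cyp21a1, a steroid 21-hydroxylase (chr17:34801348-34804561), had 4 reads in wild type and 305 in the labelled knockout. C4b, the other copy, did not pass (log2 fold change 0.17 (SE 0.23), adjusted p 0.724). H2-Q1 (chr17:35320405-35325099) measured 29.1, 39.2, 28.6, 29.0 and 19.0 CPM against 6.07, 9.77, 5.62, 6.91 and 4.17 CPM (log2 fold change -2.16 (SE 0.23), adjusted p 0.000148). C4a and C4b are near copies, so the split of reads between them is uncertain.

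Imprinted noncoding RNAs of one cluster on chromosome 12 rose together. Meg3 (chr12:109541001-109571726) measured 1.01, 1.03, 1.05, 1.14 and 1.81 CPM in wild type and 106, 18.5, 45.5, 12.6 and 60.4 CPM in the labelled knockout (log2 fold change 5.31 (SE 0.56), adjusted p 0.000151). Rian measured 0.582, 0.551, 0.598, 0.909 and 1.32 CPM against 71.0, 12.1, 32.7, 6.25 and 30.9 CPM (log2 fold change 5.23 (SE 0.62)), and Mirg had 13 reads against 402. Labelled knockout liver 1 was the highest for all 3 RNAs. The spread within the labelled knockout was over 8-fold for Meg3.

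Cfd, adipsin of fat tissue, measured 1.09, 0.257, 0.598, 52.5 and 0.172 CPM in wild type, high in liver 5 alone, which was also the highest for the female-biased genes. The part of that library's Cfd in the female-biased result was not tested.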
